A study of Rattus norvegicus with 16 samples.

Results

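The medial habenula (MHb), a small epithalamic nucleus of cholinergic and peptidergic neurons, was profiled on 4 arrays, 1 for each of 4 treatments, out of 16 arrays in the series. The arrays were taken by their label, and they carry adult male Wistar rats of 8 to 10 weeks that were treated for 60 min. One rat group inhaled 2.4% sevoflurane and was compared with rats given O2 alone. Another received a 10 mg/kg bolus of propofol, then an infusion of 36 mg/kg each hour, and was compared with rats given Intralipos, an emulsion with 10% lipid. All groups breathed 40% oxygen at 6 L/min. The nucleus was cut by laser from Nissl-stained frozen sections, and 100 ng of total RNA was labelled per array. The other 12 arrays hold 3 further regions under the same treatments: the neighbouring lateral habenula (LHb) and, from the hindbrain, the medial vestibular (MVe) and solitary (Sol) nuclei. How many rats gave tissue to an array, and whether the regions came from the same rats, was not stated in the labels.

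The MHb receives input from the septum and sends acetylcholine, glutamate and substance P to the interpeduncular nucleus, where nicotinic receptors are dense. Immediate early genes such as Egr1 and Fos are transcribed within minutes when neurons fire or growth factors act, with no new protein needed, and are used as markers of recent activity. Sevoflurane and propofol both act on GABA-A receptors, and sevoflurane also acts on other channels.

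Values are log2 signals, so a difference of 1 is a 2.00-fold difference. Each treatment had 1 MHb array, so a difference between single arrays has no replicate check, and the number of arrays limits the precision. The arrays of the lipid pair were scaled apart from those of the inhaled pair (mean over all probe sets in the MHb 6.98 to 6.99 for propofol and Intralipos, 7.21 for sevoflurane and O2). Differences were therefore taken within a pair, sevoflurane minus O2 and propofol minus Intralipos, and levels from both pairs that stand side by side below carry that offset. The negative control probe sets, named as such in their identifiers, had a 95th percentile between 8.30 and 8.66 on the MHb arrays, and 33.7% to 36.5% of the 15037 genes lay above it. Genes below that level can still be measured, but their signal is within the range of these controls.

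The arrays carried the genes of the labelled nucleus. Of 15 measured MHb markers, 13 were higher on every MHb array than on every array of the other regions, and 14 lay above the control percentile on all 4 MHb arrays. The nicotinic receptor gene Chrnb3 averaged 16.17 ± 0.70 (SD, n = 4 arrays under different treatments) in the MHb, against 9.78 ± 0.76 in the LHb, 3.99 ± 0.18 in the Sol and 4.19 ± 0.24 in the MVe. Tac3, which encodes neurokinin B, averaged 15.75 ± 0.37 against 10.17 ± 1.38 in the LHb, and Chat, the acetylcholine-synthesizing enzyme, 11.55 ± 0.45 against 6.29 ± 0.39. The exceptions were the calcium-binding protein gene Calb2, which was higher in the LHb (16.52) and MVe (16.48) than in the MHb (14.20), and the nicotinic subunit gene Chrna5, which was higher in the Sol (7.09 against 5.97). Of 8 measured genes on the list of LHb markers, 3 were higher on every MHb array than on every other array: Gpr151, an orphan receptor of the habenula (16.30 against 14.04 in the LHb), the serotonin receptor gene Htr5b (12.09 against 10.39) and the synaptic gene Cplx1 (18.49 against 15.36). The other 5 averaged lower in the MHb than in the LHb, such as the growth cone gene Gap43 (8.11 against 14.86) and the serotonin receptor gene Htr2c (12.45 against 16.51). Within the MHb, none of the 15 markers differed by 1 log2 in either pair. Their medians were -0.04 for sevoflurane, with 6 of 15 above 0, and 0.17 for propofol, with 10 of 15 above 0. Of all genes, 49.3% and 52.8% were above 0 in those pairs.

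**Figure D1:**
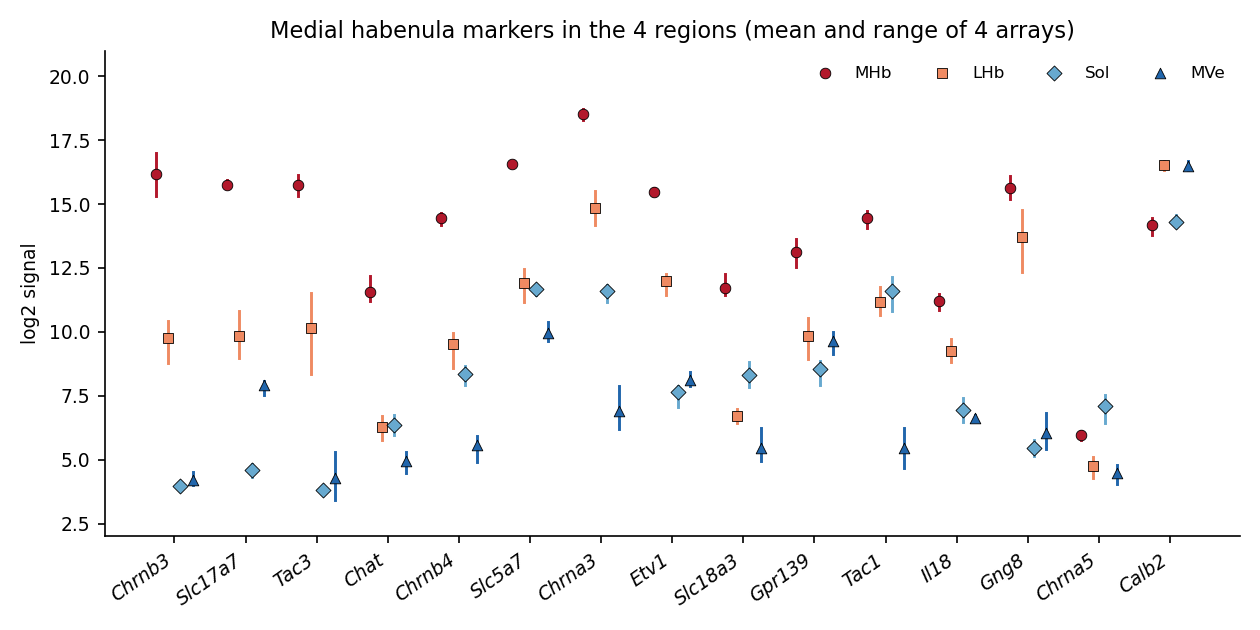
Log2 signal (y axis) of the 15 measured MHb markers in the 4 regions; points are means and bars the range over the 4 arrays of a region. For 13 markers the whole MHb range lies above all other regions; Chrna5 and Calb2 are the exceptions.

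The first question was which genes both anesthetics shift in the same direction. Of the 15037 genes, 1 was at least 1 log2 higher in both pairs (0.00665%) and 4 were at least 1 log2 lower in both (0.0266%). The gene above the limit was Cad, whose product starts pyrimidine synthesis. Its level was 6.91 with sevoflurane, 5.89 with O2, 5.59 with propofol and 4.30 with Intralipos, which gives differences of 1.02 and 1.29. Each anesthetic array was above its own control. The sevoflurane value of Cad lay under the limit after median centring (0.96) and after quantile normalization (0.95), where Rad54b (1.09 and 1.02) passed in its place.

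The 4 genes lower with both anesthetics were Ccdc190, Syt17, Or6c35 and Galr1. Ccdc190, which encodes a coiled-coil protein, read 6.75 with sevoflurane against 8.07 with O2 and 6.28 with propofol against 7.69 with Intralipos (-1.32 and -1.40). It was the only one of the 5 whose highest MHb array reached that array's median over genes. Syt17, of the synaptotagmin family of membrane trafficking proteins, read 5.52 against 6.90 and 4.69 against 6.20 (-1.38 and -1.51). In both genes the 2 control arrays lay above the 2 anesthetic arrays. Galr1, a receptor for the neuropeptide galanin, stood at -1.25 and -1.10, and the olfactory receptor gene Or6c35 at -1.35 and -1.49. None of the 5 exceeded the control percentile on any MHb array.

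These 5 genes were chosen by the differences just given, so no test of those differences supports them. In the regions the choice did not use, Ccdc190 differed by between -0.34 and 0.23 across both pairs of the LHb, Sol and MVe, with a fitted mean anesthetic effect of -0.01 ± 0.12 (moderated standard error, limma, adjusted p = 0.991). Syt17 was higher in 5 of those 6 pairs, with a mean effect of 0.35 ± 0.14 (adjusted p = 0.792), and Galr1 stood at 0.14 ± 0.15 (0.926). The Cad effect there was -0.03 ± 0.17 (0.990) and that of Or6c35 0.12 ± 0.24 (0.962). None of these values passed the threshold of 0.05 after adjustment over all genes. Levels differed between the regions. Ccdc190 averaged 7.20 in the MHb but 4.45 in the LHb, 4.54 in the Sol and 4.40 in the MVe. Those low levels leave little room for a drop. Syt17 averaged 5.83 in the MHb against 11.95, 11.06 and 8.87 in that order, and Galr1 5.61 against 9.09, 10.14 and 6.03. The part that carried-over LHb tissue plays in the MHb values of Syt17 and Galr1 was not tested.

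A limma fit of the 4 MHb arrays with the array set as a term treats the 2 anesthetics as repeats of each other and leaves 1 residual degree of freedom. It called 0 of 15037 genes (0%). Before adjustment, 698 genes (4.64%) had a p under 0.05, of which 346 were higher and 352 lower. The smallest adjusted p, 0.684, belonged to Syt17 (-1.45 ± 0.23), Or6c35 (-1.42 ± 0.23) and Ccdc190 (-1.36 ± 0.23). Set against the mean effect in the other 3 regions, the MHb effect of Syt17 was -1.80 ± 0.27, and 0 genes passed (smallest adjusted p = 0.150; 559 genes with an unadjusted p under 0.05). Syt17 passed with the Sol Intralipos array left out (adjusted p = 0.0264) and with a trended, robust variance (0.0476). This contrast contains the arrays by which the gene was chosen.

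The limit parts genes of similar size. Just outside on the higher side lay Pvalb, a calcium-binding protein gene of fast-spiking interneurons (just under 1.00, and 1.86), the melanocortin receptor gene Mc3r (0.99 and 1.03) and the DNA repair gene Rad54b (1.12 and 0.97). On the lower side these were the transcription factor gene Mycn (-0.92 and -1.15), the lipopolysaccharide co-receptor gene Ly96 (-0.91 and -1.14) and Ppp1r3d, a glycogen-targeting phosphatase subunit (-0.89 and -1.01). At a limit of 0.75 the counts were 14 higher and 21 lower, and at 1.5 both were 0.

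**Figure D2:**
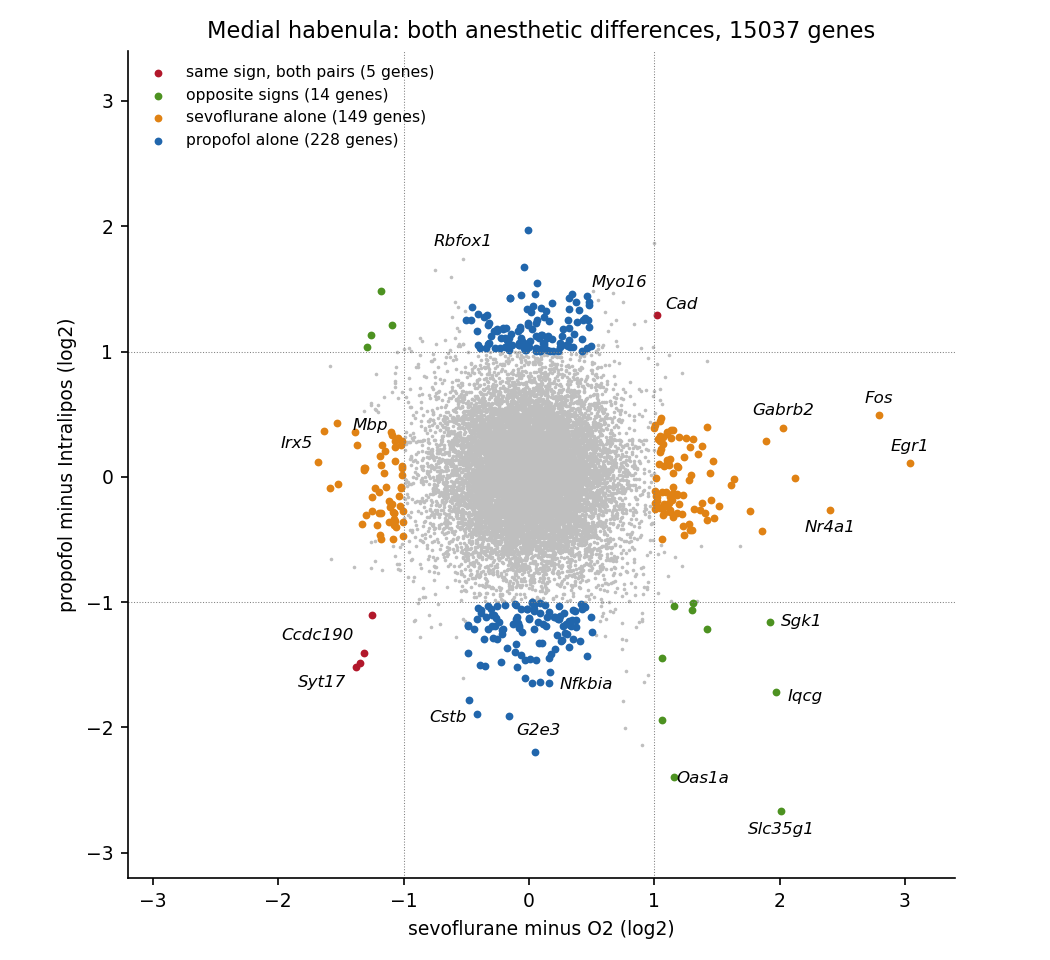
Each point is 1 of 15037 genes in the MHb, with sevoflurane minus O2 on the x axis and propofol minus Intralipos on the y axis (log2, 1 array per treatment; dotted lines at 1 log2). The 5 genes with the same sign in both pairs sit in 2 corners, while the far right is held by Egr1, Fos and Nr4a1 at propofol values near 0.

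Most genes past the limit belonged to 1 pair. With sevoflurane 124 genes were at least 1 log2 higher (0.825%) and 99 lower (0.658%), and with propofol 165 were higher (1.10%) and 162 lower (1.08%). Of these, 92 were higher (0.612%) and 57 lower (0.379%) with sevoflurane alone, meaning that the other pair differed by under 0.5. For propofol alone the counts were 117 higher (0.778%) and 111 lower (0.738%). Across the 15037 genes the 2 differences had a Pearson r of -0.04, and in the other regions between -0.04 and 0.05. Both points of a gene come from single pairs of arrays, and genes are no replicates of one another. The spread of all differences was an SD of 0.37 for sevoflurane and 0.41 for propofol, and sevoflurane values past the limit were commonest at modest levels, with 136 between mean levels of 4.38 and 6.78, 34 below and 46 and 7 in the next equal-sized groups above. Of the 124 genes higher with sevoflurane, 54 reached the array median and 17 the control percentile on at least 1 MHb array.

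The largest sevoflurane differences in the MHb belonged to immediate early genes. Egr1, a zinc finger transcription factor, read 10.42 with sevoflurane and 7.38 with O2, and 7.77 with propofol and 7.66 with Intralipos. The sevoflurane array stood alone above the other 3. The difference was 3.04, or 8.23-fold, for sevoflurane and 0.11 for propofol. Fos, a subunit of the AP-1 transcription factor, read 9.69 with sevoflurane, 6.89 with O2, 6.55 with propofol and 6.06 with Intralipos (2.79 and 0.49). Nr4a1, an orphan nuclear receptor, read 9.71, 7.30, 5.93 and 6.19 in the same order (2.40 and -0.26). These were the 3 highest sevoflurane differences of all genes, and in each the sevoflurane array was far above the other 3.

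Promoter sequences are shown for 3 of the early genes that were higher with sevoflurane, since some of their known activity-dependent elements lie within the window covered. The window runs from 250 bases before to 50 after the start of the first listed transcript (RefSeq, build GRCr8). Elements further upstream are not covered. The sequences read 5′ to 3′ on the coding strand. Fos is named only. Capitals mark CArG boxes, the binding motif of serum response factor, in Egr1 (chr18:26736828-26737127, plus strand). In Nr4a1 (chr7:134259888-134260187, plus strand) they mark TGACG on either strand, a shorter motif made of the first letters of the cAMP response element. In Dusp1 (chr10:17184603-17184902, plus strand), a phosphatase gene at 1.03 with sevoflurane, they mark the full element TGACGTCA.
Egr1: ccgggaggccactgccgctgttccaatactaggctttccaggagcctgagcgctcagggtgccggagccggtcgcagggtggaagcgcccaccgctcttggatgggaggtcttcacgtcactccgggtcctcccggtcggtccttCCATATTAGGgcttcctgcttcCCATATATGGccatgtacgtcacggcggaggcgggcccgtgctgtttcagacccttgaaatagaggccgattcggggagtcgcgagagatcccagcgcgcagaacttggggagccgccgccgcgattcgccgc
Nr4a1: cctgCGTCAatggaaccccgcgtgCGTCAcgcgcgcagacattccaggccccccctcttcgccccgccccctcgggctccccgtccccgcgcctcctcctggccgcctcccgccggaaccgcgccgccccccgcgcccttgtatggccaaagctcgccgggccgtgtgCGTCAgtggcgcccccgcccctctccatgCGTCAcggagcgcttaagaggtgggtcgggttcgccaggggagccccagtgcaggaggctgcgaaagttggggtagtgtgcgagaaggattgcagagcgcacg
Dusp1: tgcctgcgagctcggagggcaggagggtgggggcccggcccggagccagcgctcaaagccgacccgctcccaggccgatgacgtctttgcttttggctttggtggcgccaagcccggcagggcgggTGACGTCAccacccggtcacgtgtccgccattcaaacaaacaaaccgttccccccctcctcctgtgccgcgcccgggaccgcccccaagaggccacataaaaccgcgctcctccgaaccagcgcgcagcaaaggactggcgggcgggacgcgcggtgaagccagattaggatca

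Egr1 held 2 CArG boxes, which began 105 and 83 bases before its start, Nr4a1 held 4 TGACG matches and Dusp1 held 1 full element 124 bases before its start. Of 12435 measured genes with a promoter entry, 160 held a CArG box (1.29%), 318 the full cAMP element (2.56%) and 3287 a TGACG match (26.4%, which includes the full element). Among the early transcription factor genes the counts were 3, 3 and 13 of 18 with an entry. Among the 109 such genes at least 1 log2 higher with sevoflurane they were 2, 1 and 26, near the shares of all genes. The motif marked differs between the genes, and the printed Egr1 and Dusp1 sequences also hold unmarked TGACG matches. A match describes these letters and does not show a used site.

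Most early transcription factor genes lay above 0 with sevoflurane, and about as many above as below 0 with propofol. Of 27 measured members, 22 were above 0 with sevoflurane (median 0.36) and 14 with propofol (median 0.01), against 49.3% and 52.8% of all genes. At least 1 log2 higher with sevoflurane were 6 of them, Egr1, Fos, Nr4a1, Fosb, Jun and Junb, and 0 with propofol, against 0.825% and 1.1% of all genes. The AP-1 subunit gene Fosb read 6.78 with sevoflurane against 5.44 with O2 (1.34), and 5.04 with propofol against 6.03 with Intralipos (-0.99). Jun stood at 1.28, although its sevoflurane level of 6.16 was below the 6.49 and 6.52 of the other pair. Junb stood at 1.10 and 0.11. Of the 27, only 3 exceeded the control percentile on all 4 MHb arrays, and 20 did so on none.

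Early effector genes did not lie mostly above 0, with 13 of 31 above 0 for sevoflurane (median -0.11) and 14 of 31 for propofol (median -0.02). The shares of all genes were 49.3% and 52.8%. Of the 31, 24 exceeded the control percentile on no MHb array. At least 1 log2 higher with sevoflurane were 3 of the 31, against 0.825% of all genes. These were Ccn1, a secreted matrix protein gene (2.13 and -0.01), the endothelial early gene Apold1 (1.10 and 0.13) and Dusp1 (1.03 and -0.93). Ccn1 read 6.56 with sevoflurane and between 3.82 and 4.44 on the other 3 arrays. With propofol, the growth arrest gene Gadd45g stood at -1.60 (3.95 against 5.55). With the propofol array left out, the sevoflurane array was fitted against both controls, which come from differently scaled sets. This fit has a single sevoflurane array, assumed to vary like the controls, and it uses the arrays by which these genes had been chosen, so it does not support them independently. Ccn1, Egr1, Fos and Nr4a1 then passed limma's test (4 genes, smallest adjusted p = 9.3e-05).

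**Figure D3:**
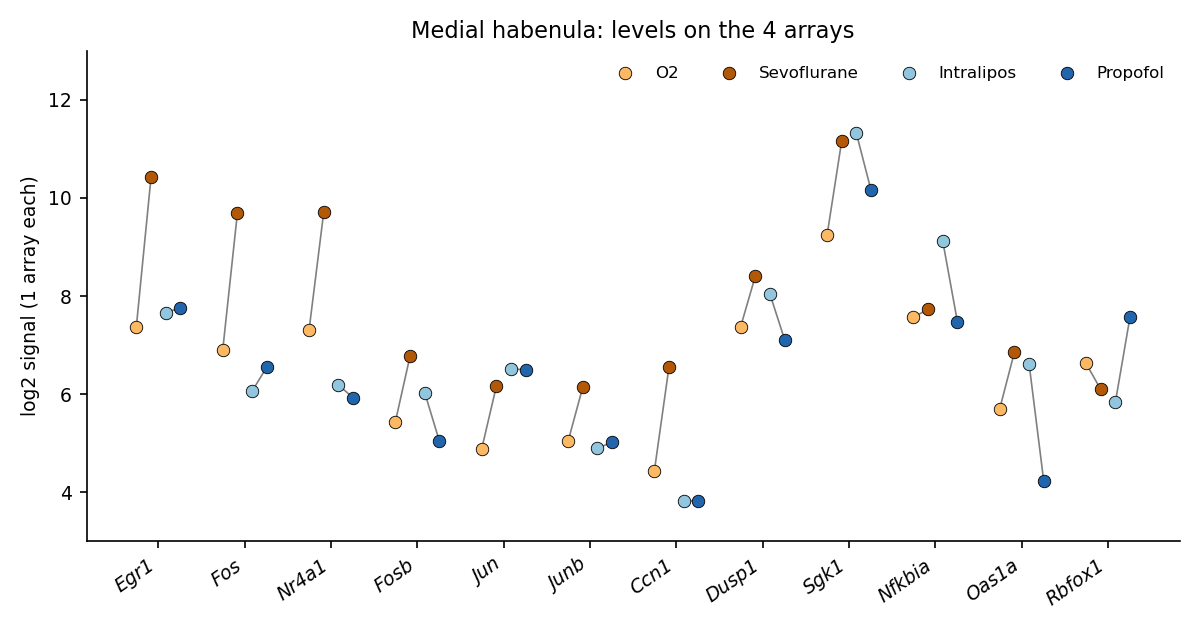
Log2 signal (y axis) of 12 genes on the 4 MHb arrays, 1 point per array, with a line joining each anesthetic to its own control. Egr1 (10.42), Fos (9.69) and Nr4a1 (9.71) are highest on the sevoflurane array, while Nfkbia is highest on the Intralipos array at 9.12.

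The same genes in the other regions give values that the MHb arrays did not enter, listed here and below in the order LHb, Sol and MVe. With sevoflurane Egr1 was 1.49 higher in the LHb, 3.91 in the Sol and 5.17 in the MVe, a fitted effect of 3.53 ± 0.71 (limma, adjusted p = 0.478). With propofol it was higher by 2.06, 0.87 and 4.56 (2.50 ± 0.71, adjusted p = 0.788), so the MHb value of 0.11 was the lowest of the 4 regions. Relative to the mean of the other regions, the propofol effect on Egr1 in the MHb was -2.39 ± 1.02, which did not pass (adjusted p = 0.846). That contrast, like the one for Nr4a1 below, contains the MHb arrays themselves, so it is no independent support. Fos with propofol was 1.84 higher in the LHb, 0.25 in the Sol and 2.33 in the MVe. With sevoflurane Fos stood at -0.04, 2.47 and 4.47. Nr4a1 with propofol was 1.57, 0.44 and 2.86 in those regions and -0.26 in the MHb, a difference of -1.88 ± 0.71 (adjusted p = 0.820). Averaged over both anesthetics, the other regions gave Junb 1.64 ± 0.26 and Egr1 3.01 ± 0.50 (both adjusted p = 0.207), the smallest adjusted p of that fit, in which 0 genes passed and 886 had an unadjusted p under 0.05. Junb passed there with the LHb left out (0.0184) and with a trended, robust variance (0.0223).

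**Figure D4:**
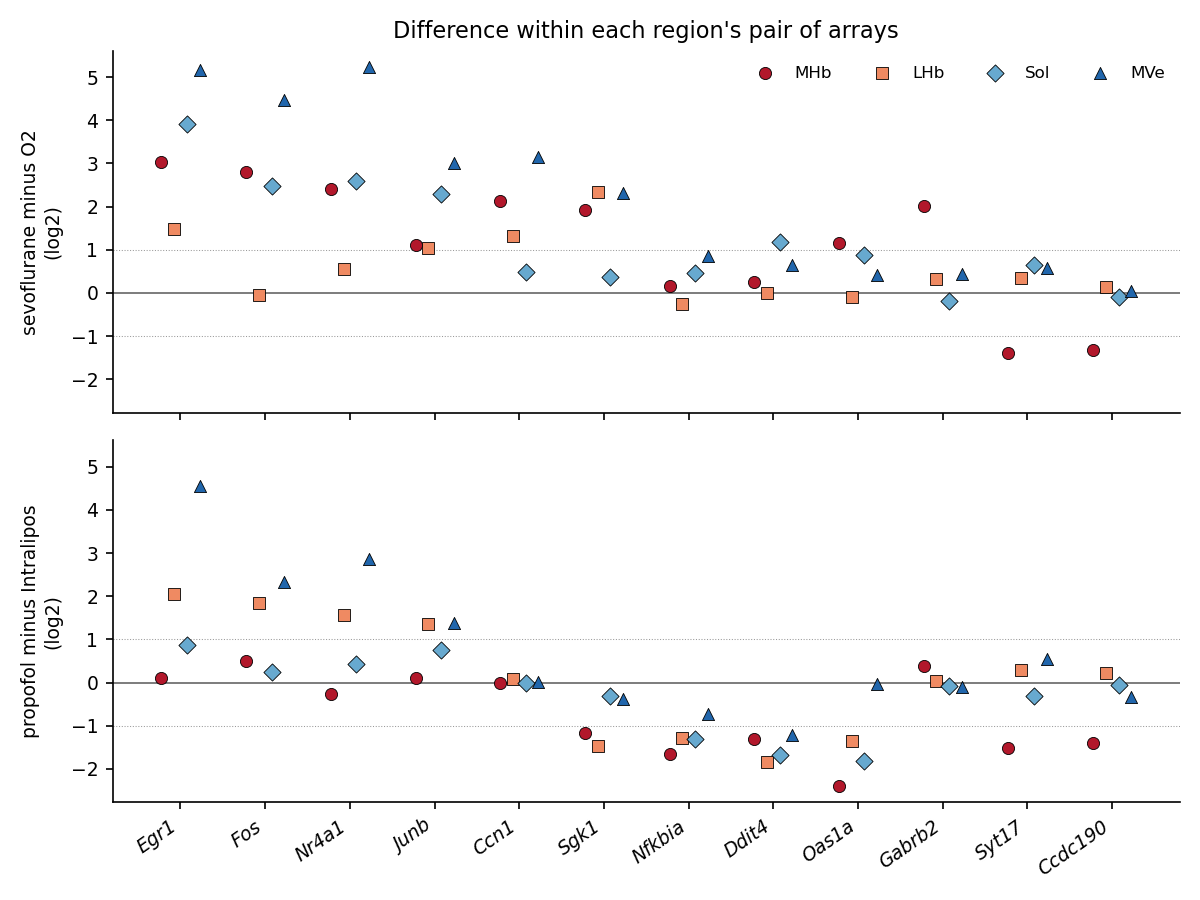
Anesthetic minus control (log2, y axis) for 12 genes in each region, 1 pair of arrays per point, with sevoflurane above and propofol below. For Egr1 the propofol value is 0.11 in the MHb and 4.56 in the MVe. Syt17 and Ccdc190 are below -1 only in the MHb, but Ccdc190 averages 4.40 to 4.54 elsewhere, which leaves little room for a drop.

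Among the genes higher with sevoflurane alone were 2 of 16 measured subunits of the GABA-A receptor, against 0.612% of all genes. Gabrb2, a GABA-A receptor beta subunit, read 7.42 with sevoflurane and 5.39 with O2 (2.03), and 6.56 with propofol and 6.16 with Intralipos (0.39). Gabrg3, a gamma subunit, read 7.57 with sevoflurane and between 5.94 and 5.98 on the other 3 arrays (1.63 and -0.02). As a list the 16 measured GABA-A subunit genes had 7 above 0 with sevoflurane (median -0.10) and 11 with propofol (median 0.20). The shares of all genes were 49.3% and 52.8%. Of the 16, 12 exceeded the control percentile on no MHb array, Gabrb2 and Gabrg3 among them. The epsilon subunit gene Gabre was just past the limit on the lower side with sevoflurane (4.35 against 5.36), and no subunit reached 1 log2 with propofol. In the other regions Gabrb2 had a sevoflurane effect of 0.19 ± 0.26 and Gabrg3 of -0.15 ± 0.20 (both adjusted p = 0.999). The muscarinic receptor gene Chrm3 read 7.16 with sevoflurane and between 5.54 and 6.08 on the other arrays (1.62 and -0.07).

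Nicotinic subunit genes, some of which mark the nucleus, stayed within 1 log2 in both pairs. Above 0 were 9 of 13 for sevoflurane and 8 of 13 for propofol (medians 0.11 and 0.12). Of all genes, 49.3% and 52.8% were above 0 in those pairs, for comparison with each list here. On no MHb array did 8 of the 13 exceed the control percentile. Chrnb3 was the largest for sevoflurane at 0.68, and stood at -0.76 with propofol. Chrna6 read 8.58 and 8.46 with sevoflurane and O2 but 5.67 and 6.46 with propofol and Intralipos, a gap between the array sets larger than either difference within a pair. Ionotropic glutamate receptor genes were above 0 in 9 of 15 for sevoflurane (median 0.09) and 12 of 15 for propofol (median 0.21), with Grin2a highest at 0.80. Two-pore potassium channel genes had medians of 0.03 and -0.09, and Kcnk2, an anesthetic-sensitive member, stood at 1.34 with propofol (5.04 against 3.71). The negative control probe sets had medians of 4.75 and 4.80 on these propofol and Intralipos arrays, so Kcnk2 was near background. Of 13 measured two-pore genes, 12 exceeded the control percentile on no MHb array, Kcnk2 among them. The HCN and T-type channel genes had medians of 0.04 and -0.06, with 3 of 6 above 0 in each pair.

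Other genes higher with sevoflurane alone were Ccl2, a chemokine that attracts monocytes (7.63 against 5.74, 1.89), and Bcl9l, a coactivator of beta-catenin (8.80 against 6.94, 1.86). Ccl2 was 0.83 higher in the LHb, 2.55 in the MVe and -0.09 in the Sol. Bcl9l was below 0 in all 3 other regions, at -0.05, -0.53 and -1.10. Among genes lower with sevoflurane alone, the homeobox gene Irx5 read 6.80 against 8.49 (-1.69) and 8.09 against 7.98 in the other pair. The growth factor gene Igf1 stood at -1.39, the chondroitin sulfotransferase gene Chst12 at -1.37, the mitochondrial myosin gene Myo19 at -1.25, Commd2 at -1.21 and the actin-binding protein gene Shroom2 at -1.12. Irx5 differed by between -0.23 and 0.40 with sevoflurane in the other regions (0.09 ± 0.19, adjusted p = 0.999).

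Oligodendrocyte marker genes encode the proteins and enzymes of myelin. With sevoflurane 14 of 14 measured members were below 0 (median -0.40), and with propofol 11 of 14 were above 0 (median 0.24). Of all genes, 49.3% were above 0 with sevoflurane and 52.8% with propofol. Mbp, myelin basic protein, read 15.76 with sevoflurane, 16.83 with O2, 16.88 with propofol and 16.64 with Intralipos (-1.07 and 0.24). The sevoflurane array was the lowest of the 4. Ugt8, which makes myelin galactolipids, stood at -1.07 and 0.83, and Mobp at -0.72 and 0.04. The mean level of the 14 genes was 11.86 with sevoflurane, 12.37 with O2, 12.12 with propofol and 11.82 with Intralipos, so the O2 array was the highest and the Intralipos array the lowest. All 14 were also below 0 with sevoflurane in the LHb (median -0.41). In the Sol 6 of 14 were above 0 (median -0.13) and in the MVe 11 of 14 (median 0.17). The shares of all genes above 0 there were 50.8% in the LHb, 49.5% in the Sol and 54.7% in the MVe. In tissue pieces, fewer cells of a type and less RNA per cell cannot be told apart, and the part that the amount of adjoining white matter plays was not tested.

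**Figure D5:**
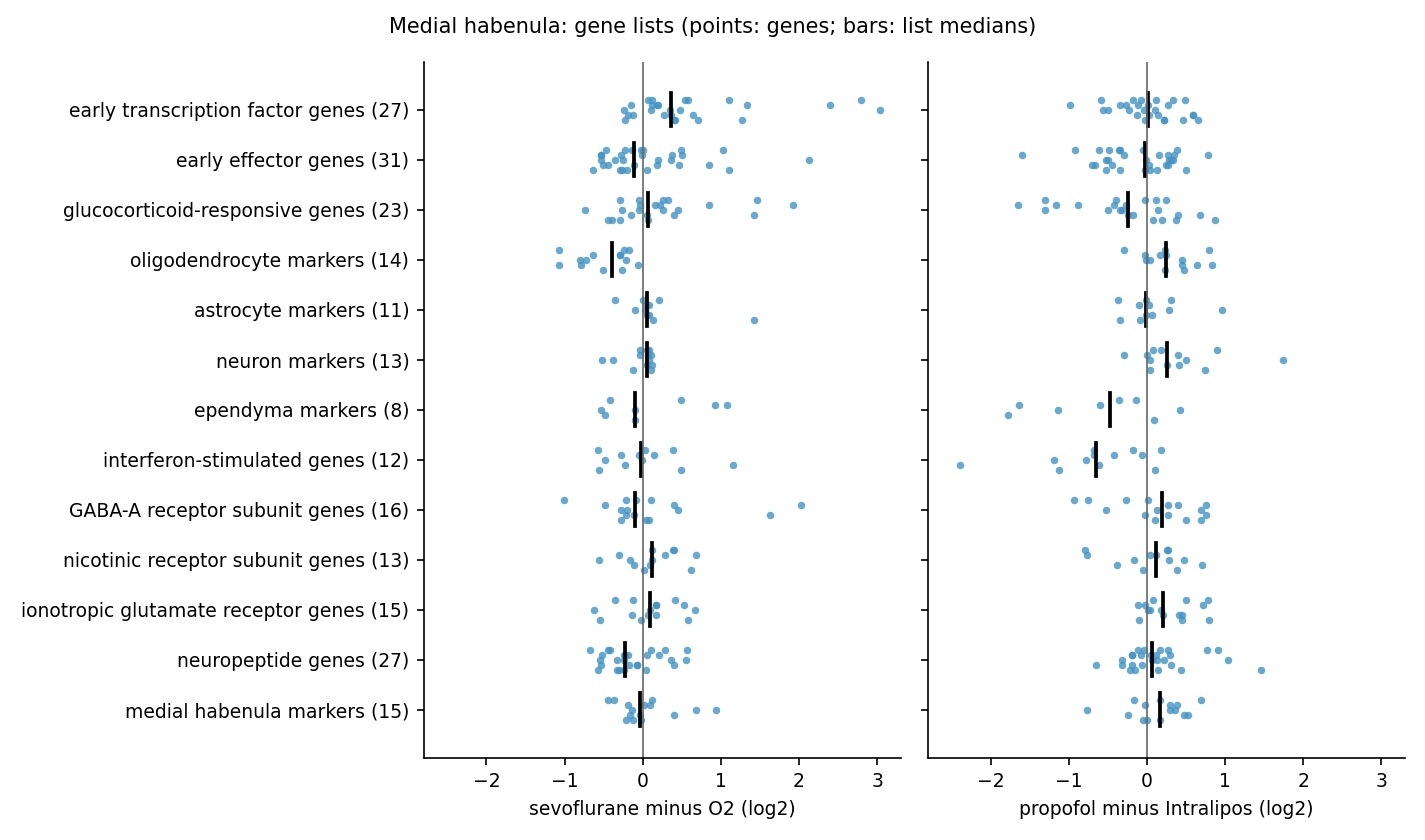
Differences in the MHb (log2, x axes) for the genes of 13 lists, 1 point per gene, with black bars at the list medians and the number measured in brackets. With sevoflurane all 14 oligodendrocyte genes lie left of 0, and with propofol 10 of 12 interferon-stimulated genes do. Of all genes, 49.3% were above 0 with sevoflurane and 52.8% with propofol.

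Neuron markers were above 0 in 8 of 13 with sevoflurane (median 0.06) and in 11 of 13 with propofol (median 0.26). The shares of all genes were 49.3% and 52.8%. Rbfox1, an RNA-binding splicing regulator of neurons and muscle, had the largest value on this list with propofol, at 7.58 against 5.84 with Intralipos (1.74, or 3.34-fold). With sevoflurane it read 6.10 against 6.63 with O2 (-0.53). The propofol array was the highest of the 4. Rbfox1 lay under the control percentile on all 4 MHb arrays, a level that 12 of the 13 neuron markers exceeded on all 4. Its relatives Rbfox2 and Rbfox3, which marks neuronal nuclei, stood at -0.05 and 0.08 with propofol. In the LHb, Sol and MVe, Rbfox1 with propofol was 0.41, 1.03 and -0.07 (0.46 ± 0.27, limma, adjusted p = 0.884). Its MHb excess over them was 1.28 ± 0.45 and did not pass after adjustment. That contrast contains the same MHb arrays, so it is no independent support.

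Genes higher with propofol alone were of diverse kinds. The ubiquitin ligase adaptor gene Klhl20 read 7.32 with propofol and 5.87 with Intralipos (1.46), with 7.90 and 7.55 in the other pair. Pnoc, the precursor of the opioid-like peptide nociceptin, read 6.61 against 5.15 (1.46), with 5.67 and 5.62 in the other pair, so here the propofol array was the highest. Pnoc was also above 0 with propofol in all 3 other regions, at 0.73, 0.92 and 0.88 (0.85 ± 0.22, limma, adjusted p = 0.788). On all 4 MHb arrays Pnoc lay under the control percentile. Tvp23a stood at 1.45, the myosin gene Myo16 at 1.45, the matrix gene Efemp1 at 1.43 and the ether lipid enzyme gene Agmo at 1.39. In all 6 of these genes the Intralipos array was the lowest of the 4.

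Genes lower with propofol alone included Cstb, which inhibits lysosomal cathepsins and was one of the brighter genes of this class. It read 11.01 with propofol, 12.91 with Intralipos, 13.21 with sevoflurane and 13.63 with O2 (-1.89). In the other regions Cstb differed by between -0.19 and 0.30 with propofol (0.07 ± 0.20, adjusted p = 0.983). The ubiquitin ligase gene G2e3 read 6.61 with propofol and between 8.15 and 8.52 on the other 3 arrays (-1.91). The ciliary dynein gene Dynlrb2 stood at -1.78, Plpp7 at -1.65 and the tetraspanin gene Tspan8 at -1.61.

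Nfkbia, the inhibitor of NF-kappaB that glucocorticoids and inflammatory signals induce, stood at -1.64 with propofol. It read 9.12 with Intralipos and 7.48 with propofol, next to 7.73 with sevoflurane and 7.57 with O2, so that the Intralipos array was the one apart. Nfkbia was lower with propofol in all 3 other regions as well, at -1.27, -1.30 and -0.72 (-1.10 ± 0.21, adjusted p = 0.788). Ddit4, a stress-induced inhibitor of mTOR signalling, read 8.97 with propofol and 10.28 with Intralipos, with 8.99 and 8.73 in the other pair (-1.30 and 0.26). In the other regions its propofol effect was -1.58 ± 0.24 and had the smallest adjusted p of that fit (0.161, with 0 genes passing and 880 at an unadjusted p under 0.05). It passed with a trended, robust variance (0.00466). Pdk4, a kinase that restrains glucose oxidation, followed with 5.84 against 7.14 (-1.31).

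Nfkbia, Ddit4, Pdk4 and the kinase gene Sgk1 belong to the list of glucocorticoid-responsive genes. With propofol 9 of its 23 measured members were above 0 (median -0.25), against 52.8% of all genes. At least 1 log2 lower were 4, against 1.08% of all genes, and 0 were higher by that much. With sevoflurane 13 of 23 were above 0 (median 0.07), against 49.3%, and 3 reached 1 log2, against 0.825%. These were Sgk1 (1.92), Lcn2, which sequesters iron carriers of bacteria (1.47), and Cdkn1a, which halts the cell cycle (1.42). Of the 23, 12 exceeded the control percentile on no MHb array, Lcn2 and Cdkn1a among them. Sgk1 exceeded it on all 4, and Pdk4 on neither array of the lipid pair.

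In 14 genes the 2 anesthetics gave opposite signs of at least 1 log2. Of these, 10 were higher with sevoflurane and lower with propofol (0.0665%) and 4 the reverse (0.0266%). The examples here were chosen after their values were seen. Slc35g1, of a family of membrane transporters, had the largest gap. It read 8.07 with sevoflurane and 6.05 with O2 (2.01), and 6.38 with propofol and 9.04 with Intralipos (-2.67). Sgk1 read 11.16 and 9.24 (1.92), and 10.16 and 11.32 (-1.16), so the sevoflurane and Intralipos arrays were the high ones in both genes. In the other regions Sgk1 kept both signs, at 2.33, 0.38 and 2.32 with sevoflurane and -1.47, -0.31 and -0.39 with propofol. The fitted effects there were 1.67 ± 0.35 (adjusted p = 0.478) and -0.72 ± 0.35 (0.854), and the sevoflurane effect passed with the Sol left out (0.0445). Slc2a6, of the glucose transporter family, was one of the 4 reverse genes (-1.29 and 1.04).

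Oas1a, an antiviral oligoadenylate synthetase, read 6.86 with sevoflurane and 5.70 with O2 (1.15), but 4.23 with propofol and 6.63 with Intralipos (-2.39). Propofol gave the lowest of the 4 levels. With propofol it stood at -1.35 in the LHb, -1.82 in the Sol and -0.03 in the MVe (-1.07 ± 0.30, adjusted p = 0.788). The interferon-stimulated genes, which cells switch on against viruses, were above 0 with propofol in 2 of 12 members (median -0.65), against 52.8% of all genes, and with sevoflurane in 5 of 12 (median -0.03), against 49.3%. Besides Oas1a, Ifit3 (-1.19) and Mx1 (-1.12) were at least 1 log2 lower with propofol, 3 of 12 against 1.08% of all genes. Of the 12 genes, 11 exceeded the control percentile on no MHb array.

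Of the genes with opposite signs, Iqcg (1.98 and -1.72), Dnai3 (1.06 and -1.45), Saxo4 (1.42 and -1.21) and Ubxn10 (1.16 and -1.03) encode parts or helpers of motile cilia, which in brain line the ventricle beside the habenula. A list of 57 motile cilia genes was drawn up by symbol after these values were seen. It had 37 members above 0 with sevoflurane (median 0.22) and 23 with propofol (median -0.14). Of all genes, 49.3% were above 0 with sevoflurane and 52.8% with propofol. At least 1 log2 higher with sevoflurane were 4 of the 57, against 0.825% of all genes. At least 1 log2 lower with propofol were 7, against 1.08%. Dnai3 and Saxo4, whose values prompted the list, are members and enter both counts, so the counts give no independent support. Of the 57, 47 exceeded the control percentile on no MHb array. The mean level of the list was 6.66 with sevoflurane, 6.49 with O2, 6.16 with propofol and 6.39 with Intralipos. Ependyma markers were below 0 with propofol in 6 of 8 (median -0.48) and with sevoflurane in 5 of 8 (median -0.10). Tmem212 stood at 0.92 and -1.64 and Rarres2 at -0.10 and -1.13, while Foxj1, the regulator of motile cilia, stood at -0.42 and -0.36. The part that ventricular lining in the cut tissue plays in these values was not tested.

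List medians of the other adjoining or admixed cells are given for sevoflurane and then propofol. Choroid plexus genes had medians of -0.21 and -0.04. The potassium channel gene Kcnj13 stood at -1.58 with sevoflurane, while Kl and Tmem72 stood at 1.14 and 1.18 with propofol. At least 1 log2 lower with sevoflurane were 2 of the 14, against 0.658% of all genes. With propofol 2 were higher by that much, against 1.1%. Astrocyte genes had medians of 0.06 and -0.01, with the connexin gene Gjb6 at 1.42 with sevoflurane. No other astrocyte gene reached 1 log2 in either pair. Microglia genes stood at -0.01 and -0.31 and vascular genes at 0.07 and 0.03, with the endothelial cadherin gene Cdh5 at -1.19 with propofol. The other vascular genes stayed within 1 log2 in both pairs. Thalamus markers stood at 0.40 and -0.17 and hippocampus markers at 0.10 and 0.04. LHb markers stood at -0.12 and -0.01. Blood cell genes stood at 0.16 and -0.08. The hippocampal transcription factor gene Neurod6 was 1.47 with propofol (6.73 against 5.27). The other hippocampus markers stayed within 1 log2 in both pairs, with Prox1 at -0.51 with propofol.

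Neuropeptide genes were above 0 in 9 of 27 for sevoflurane (median -0.22) and 15 of 27 for propofol (median 0.06). Of all genes, 49.3% and 52.8% were above 0 in those pairs, for comparison with each list here. Of the 27, 23 exceeded the control percentile on no MHb array, Pnoc among them. Of the tachykinin genes that mark the nucleus, Tac1 stood at -0.44 and 0.17 and Tac3 at -0.19 and 0.29. Clock genes were above 0 in 10 of 14 and 11 of 14 (medians 0.07 and 0.17), with Per1 at 0.40 and 0.69. Heat shock genes had medians of 0.18 and -0.10, with 7 of 10 and 4 of 10 above 0.

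Genes past the limit in the MHb were then read in the regions that had not chosen them. Of the 124 higher with sevoflurane, 21 were above 0 in all 3 other regions (16.9%, against 13.3% of all genes). Of the 99 lower with sevoflurane, 7 were below 0 in all 3 (7.07%, against 11.3%). For propofol, 29 of the 165 higher genes kept their sign in all 3 (17.6%, against 14.4%) and 32 of the 162 lower genes did so (19.8%, against 13.4%). These shares lie near those of all genes and are not a result about the genes chosen. Tested for each anesthetic against the mean of the other regions, 0 genes differed in the MHb for sevoflurane (593 at an unadjusted p under 0.05) and 0 for propofol (882). In the fits of the other regions alone, 0 genes passed for sevoflurane (680), propofol (880) or the difference between them (669).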

How the data were processed

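Expression was measured on Affymetrix arrays. Signals were deposited on a log2 scale, which was read from the range of the values. Per the submitters' processing notes, the authors used Affymetrix Expression Console 1.3.0. How probes were summarized, and on which genome build, is not given here. Of 24834 probe sets, 15049 carried 1 gene symbol in the platform annotation, 0 several and 8139 transcript probe sets none, and the rest were controls. The probe set with the highest mean over 16 arrays was kept per symbol, which left 15037 genes. The members and gene lists were chosen with earlier results of these data known.

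Differences were taken within the 2 MHb pairs with no further scaling. A gene was counted at 1 log2 or more, and as moved by 1 anesthetic alone where the other pair was under 0.5. Named were Egr1, Fos and Rbfox1, the genes at the limit in both pairs, the 6 largest per direction and anesthetic among genes that reached their array's median, the 3 nearest the limit on each side, up to 4 members of each list by mean difference, and the smallest p of each fit; others were chosen after their values were seen.

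Linear models were fitted in R 4.3.3 with lmFit and eBayes of limma 3.58.1 (two-sided tests, Benjamini-Hochberg adjustment over 15037 genes, threshold 0.05). They covered the 4 MHb arrays with array set as a term (1 residual degree of freedom), the 12 arrays of the other regions with region and treatment as terms (6), and all 16 arrays for the MHb effect minus the mean of the other regions (6). That last contrast was also fitted per anesthetic on 8 arrays (2), which was added after seeing the values. Regions and anesthetics stand in for replicates, and since nothing ties regions to separate rats, p-values measure only the spread between these arrays. The fits were tested on simulated data. Promoters came from RefSeq (GRCr8). Figures were drawn with matplotlib 3.10.9 in Python 3.11.15.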

Additional observations from a re-analysis of the deposited data

Results flagged for a closer look

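In 5 genes named above, the MHb differed by at least 1 log2 one way while the LHb, Sol and MVe all differed the other way in the same contrast. With sevoflurane, Bcl9l stood at 1.86 in the MHb and at -0.05, -0.53 and -1.10 in the LHb, Sol and MVe, and Saxo4 at 1.42 and at -0.40, -0.36 and -0.26. Syt17 stood at -1.38 in the MHb and at 0.35, 0.65 and 0.58. Its mean level was 5.83 in the MHb against 11.95, 11.06 and 8.87 in those regions. With propofol, Dynlrb2 stood at -1.78 in the MHb and at 0.40, 0.01 and 0.17, and Or6c35 at -1.49 and at 0.83, 0.51 and 0.06. The opposite signs themselves were not tested, and the genes were chosen by values that enter the fit that follows. The fitted gap between the MHb and the mean of the other regions, fitted per anesthetic with limma, passed in none of the 5 (adjusted p = 1.00 for the sevoflurane genes, 0.644 for Dynlrb2 and 0.722 for Or6c35).

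Among probe sets without a gene symbol, which entered no comparison, 2 were at least 1 log2 higher in both MHb pairs, 2 at least 1 log2 lower in both and 4 opposite.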

How the results depend on the processing

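The counts of genes at the limit depended on the limit and on dim genes. The count higher with both anesthetics was 1, and 0 after median centring of each array, with dim genes left out (those below the array median on every MHb array) or at a limit of 1.5, and 14 at 0.75. The count lower with both was 4, and 1 with dim genes left out, 21 at 0.75 and 0 at 1.5. Without dim genes the counts for sevoflurane alone were 39 higher and 15 lower, and for propofol alone 56 and 61. Median centring and quantile normalization left the one-anesthetic counts within 1.5 times, and all 126 rescaled values of the 44 genes followed kept their sign. In limma's fits, where 0 genes passed, leaving out MHb arrays in turn gave 0 to 4 genes for the MHb effect, the 4 without the propofol array. Leaving out regions gave 0 to 1 for the mean effect elsewhere (1 without LHb), 0 to 2 for sevoflurane (2 without LHb, 1 without Sol), 0 for propofol and 0 to 1 for the difference (1 without Sol). Leaving out single arrays gave 0 to 1 for the MHb against the other regions (1 without Sol Intralipos). Trended, robust variance gave 1 gene (Junb) for the mean effect elsewhere, 1 (Ddit4) for propofol, 1 (Ddit4) for the difference and 1 (Syt17) for the MHb against the others. Beyond the smaller number of genes or arrays, the cause was not tested. Signal limits the rest: most genes at the limit lie within the range of the control probe sets.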
